A study of Mus musculus with 9 samples.

Results

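The genes described here are 10 mouse genes that are widely used as readouts of the transcriptional coactivator YAP or of serum response factor (SRF): Ccn1 (also called Cyr61), Ccn2 (Ctgf), Ankrd1, Amotl2, Lats2, Axl, Srf, Tagln, Vcl and Myl9. They were chosen by name, with earlier results of these data known. All 10 were found among 22180 genes measured with a feature of their own. Expression was measured on 9 Affymetrix Mouse Gene 2.1 ST arrays of TAMH cells, a line of transgenic mouse hepatocytes that make transforming growth factor alpha, and each of 3 groups held 3 arrays. The control group received medium alone, the diquat (DQ) group 18 µM diquat and the paraquat (PQ) group 126 µM paraquat, each for 9 h. Diquat and paraquat are bipyridylium herbicides that accept an electron in cells and pass it to oxygen, which gives superoxide. All groups shared a medium with dexamethasone, nicotinamide, gentamicin, insulin, transferrin and selenium, and the dishes were dosed at confluence. TAMH is a passaged line that carries a growth factor transgene, and nothing in the labels tells whether the 3 dishes of a treatment came from independent cultures. The p-values therefore reflect only how far these dishes differed, and that may be technical variation.

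YAP and its relative TAZ (gene Wwtr1) enter the nucleus when the Hippo kinases are inactive, and they act there through the DNA-binding TEAD factors. Sparse plating, stiff matrix and tension on the actin cytoskeleton favour this, and confluence restrains it. SRF binds CArG boxes and works with MRTF cofactors, which sense the pool of unpolymerized actin, or with ternary complex factors, which are phosphorylated by MAP kinases. In liver, both systems are known from regeneration and from fibrosis, where their targets are studied in hepatocytes and stellate cells.

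The promoters below are shown so that the motif content can be set beside the response. Ankrd1, Ccn1 and Srf rose with both compounds, Amotl2 fell with diquat, and Vcl and Myl9 are SRF-type genes that did not pass the test. RefSeq entries on GRCm38.p6, each covering 250 bases before and 50 bases after an annotated start, were found for 8 of the 10 members, with 9 entries in all because Lats2 has 2 starts. The TEAD motif was searched as GGAATG and its other strand CATTCC, and the CArG box was searched by its consensus, which reads the same on both strands. Each line below gives the 250 bases before the start, 5′ to 3′ on the strand of the gene, with motif matches in capitals.
Ankrd1, chr19:36119845-36120094, minus strand, 2 TEAD motifs: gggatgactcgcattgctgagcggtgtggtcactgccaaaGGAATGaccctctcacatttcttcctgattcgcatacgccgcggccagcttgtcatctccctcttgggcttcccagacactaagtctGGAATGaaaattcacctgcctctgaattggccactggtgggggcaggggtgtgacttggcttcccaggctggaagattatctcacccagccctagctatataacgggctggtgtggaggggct
Ccn1, chr3:145649986-145650235, minus strand, 1 TEAD motif: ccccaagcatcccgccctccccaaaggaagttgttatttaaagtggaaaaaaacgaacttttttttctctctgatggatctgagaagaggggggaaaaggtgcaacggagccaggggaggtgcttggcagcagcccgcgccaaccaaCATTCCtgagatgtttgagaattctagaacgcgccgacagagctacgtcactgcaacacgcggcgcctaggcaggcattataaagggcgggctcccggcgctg
Amotl2, chr9:102717554-102717803, plus strand, 1 TEAD motif: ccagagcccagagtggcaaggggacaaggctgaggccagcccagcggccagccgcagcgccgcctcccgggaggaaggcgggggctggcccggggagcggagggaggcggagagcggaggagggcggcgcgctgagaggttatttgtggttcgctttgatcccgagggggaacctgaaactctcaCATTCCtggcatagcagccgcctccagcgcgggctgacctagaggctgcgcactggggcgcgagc
Srf, chr17:46556163-46556412, minus strand, 2 CArG boxes: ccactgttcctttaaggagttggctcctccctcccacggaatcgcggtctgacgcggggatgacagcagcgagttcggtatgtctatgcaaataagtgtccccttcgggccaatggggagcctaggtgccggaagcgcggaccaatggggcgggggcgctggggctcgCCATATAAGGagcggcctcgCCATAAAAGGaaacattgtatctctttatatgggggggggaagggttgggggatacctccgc
Vcl, chr14:20929148-20929397, plus strand, 1 CArG box and 1 TEAD motif: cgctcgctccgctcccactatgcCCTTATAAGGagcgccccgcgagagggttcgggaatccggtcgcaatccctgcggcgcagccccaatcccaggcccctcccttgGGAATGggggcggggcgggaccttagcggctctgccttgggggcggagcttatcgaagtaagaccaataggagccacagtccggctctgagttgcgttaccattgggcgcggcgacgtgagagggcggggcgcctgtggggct
Myl9, chr2:156775214-156775463, plus strand, 1 CArG box: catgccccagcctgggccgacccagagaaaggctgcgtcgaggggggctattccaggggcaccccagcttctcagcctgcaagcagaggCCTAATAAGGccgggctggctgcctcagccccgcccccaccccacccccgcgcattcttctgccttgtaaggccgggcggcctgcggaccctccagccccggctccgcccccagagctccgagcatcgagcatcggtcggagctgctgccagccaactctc

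Of the 8 members with an entry, 6 held a TEAD motif (Ccn1, Ankrd1, Amotl2, Lats2, Axl and Vcl) and 3 held a CArG box (Srf, Vcl and Myl9). Ccn2 and Tagln had no entry. Among all 32851 promoter entries of the same length, 14.7% held the TEAD motif and 1.63% the CArG box. These shares count entries, while the members were counted by gene. The members were also listed as known targets, so the shares are no test of them. The 2 CArG boxes of Srf, CCATATAAGG and CCATAAAAGG, begin 82 and 62 bases before the start. The single match of Lats2 lies within the 50 bases after its first start, and its second start had none. Ankrd1 and Ccn1, which rose, and Amotl2, which fell with diquat, all held a TEAD motif, and so did Lats2, Axl and Vcl, which did not pass with either compound. Srf, which rose, and Vcl and Myl9, which did not pass, held a CArG box. These matches describe letters in a short window and are not binding sites measured in TAMH cells.

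**Figure D1:**
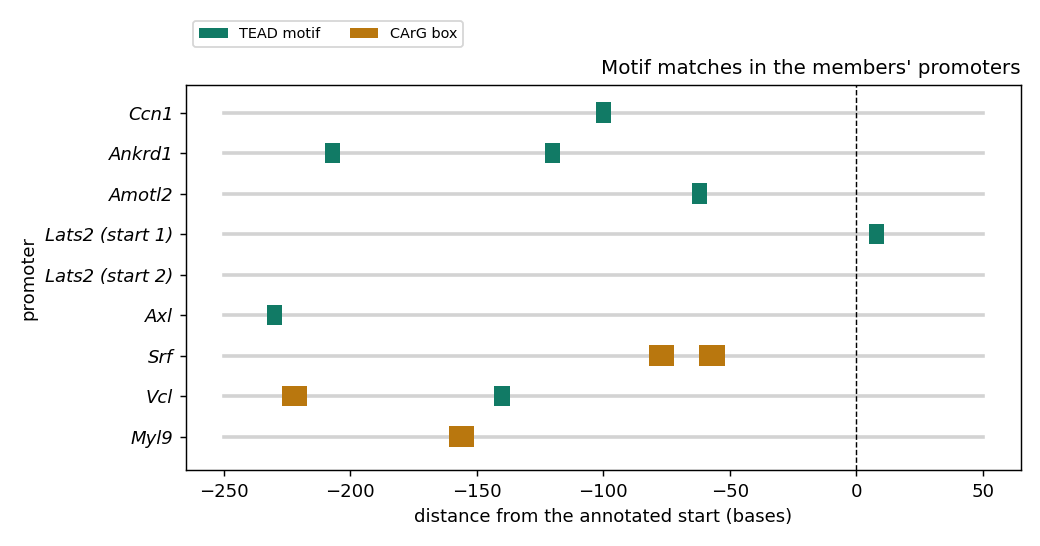
Positions of TEAD motifs (green) and CArG boxes (orange) in the 9 promoter entries of 8 members, plotted as the distance in bases from the annotated start (dashed line), from 250 bases before it to 50 after. The 2 CArG boxes of Srf lie within 82 bases of the start, and the 2 TEAD motifs of Ankrd1 begin 210 and 123 bases before it.

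The values are log2 expression on a scale that ran from 3.89 to 13.19 over all features, with array medians from 5.95 to 6.04. The diquat arrays differed most from their group mates, with root-mean-square differences of 0.102, 0.115 and 0.134 (log2 units) for replicates 1, 2 and 3. The control and paraquat arrays had 0.0714 to 0.0878. The precision is limited by 3 arrays per group. The hepatocyte label was checked on 7 measured markers, which in controls ran from Apoa2 at 7.16 to Alb at 12.73 ± 0.02 (SD, n = 3). Krt8 lay at 11.95 ± 0.02 (SD, n = 3) in controls. The 5 measured cholangiocyte markers also lay above the array medians in controls, from Cftr at 6.69 to Sox9 at 10.20. The means over 6 endothelial markers (5.60 to 5.77 over the 9 arrays) and over 6 macrophage markers (6.05 to 6.24) lay close to the array medians, and among 10 stellate cell and fibroblast markers Lum lay at 4.67 and Dcn at 11.07 in controls. In such bulk samples, fewer cells of a type and less RNA per cell cannot be told apart.

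With diquat, 3 of the 10 members rose (Ankrd1, Srf and Ccn1), 2 fell (Amotl2 and Tagln) and 5 did not pass the test. With paraquat, Ankrd1, Ccn1 and Srf rose again, none fell and 7 did not pass. The diquat count of 5 was 3 without control replicate 2, and the paraquat count of 3 was 1 without paraquat replicate 3. The largest change among the members was 1.31-fold, for Ankrd1 with paraquat. Among all genes tested, 7.02% passed with diquat (4.13% higher and 2.89% lower) and 4.57% with paraquat (2.33% higher and 2.24% lower). An unadjusted p under 0.05 was found for 6 members with diquat, against 21.6% of all genes, and for 5 with paraquat, against 15%. Treated and control arrays did not overlap for 6 members with diquat (21.3% of all genes) and 5 with paraquat (19.4%). The members were chosen with earlier results of these data known, so these counts are no independent test of the set. The median change over the 10 members was 0.045 on the log2 scale with diquat and 0.025 with paraquat, beside medians over all genes of -0.0167 and -0.0033. Both comparisons share the 3 control arrays, so a deviation in the controls enters both. A gene passed when limma's p-value, adjusted over all 22180 genes by the Benjamini-Hochberg method, was under 0.05.

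**Figure D2:**
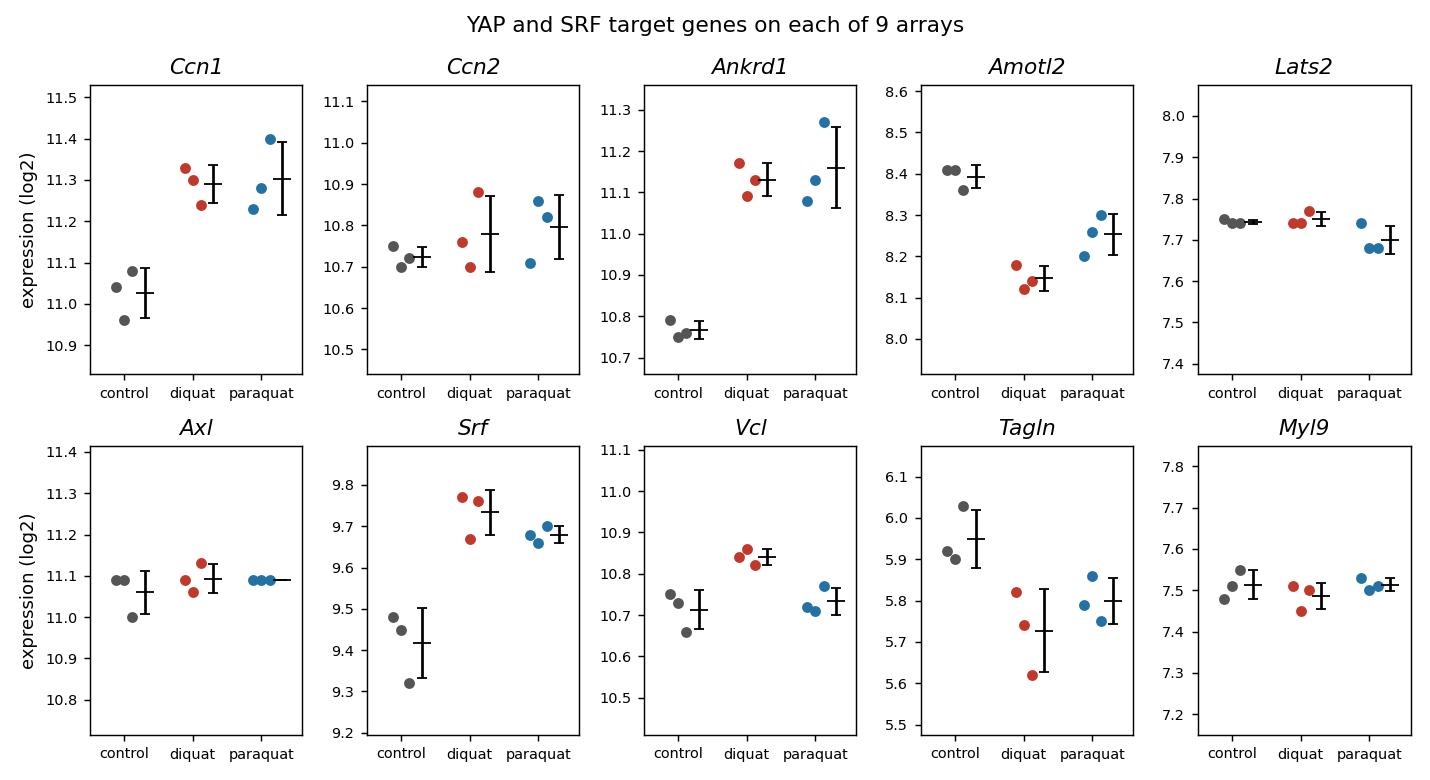
Log2 expression of each member on each array, in 10 panels that each span 0.7 log2 units, with points for the 3 arrays of the control, diquat and paraquat groups and a bar for the mean ± SD beside them. Ankrd1, Ccn1 and Srf are higher on all 6 treated arrays than on any control array, Amotl2 and Tagln are lower, and Ccn2, Lats2, Axl and Myl9 overlap.

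Ankrd1 encodes an ankyrin repeat protein of the nucleus and the sarcomere and is a standard YAP target. Its values were 10.79, 10.75 and 10.76 in controls, 11.17, 11.09 and 11.13 with diquat, and 11.08, 11.13 and 11.27 with paraquat. Every treated array lay above every control array, and the diquat and paraquat arrays overlapped. The change was 0.36 ± 0.05 (SE) on the log2 scale with diquat, or 1.29-fold (limma adjusted p = 0.00194), and 0.39 ± 0.05 (SE) with paraquat, or 1.31-fold (adjusted p = 0.00159). By absolute change it ranked 456 of 22180 genes with diquat and 305 with paraquat.

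Ccn1 encodes a secreted matricellular protein that binds integrins and that is induced by YAP and by SRF. It was at 11.04, 10.96 and 11.08 in controls, at 11.33, 11.30 and 11.24 with diquat, and at 11.23, 11.28 and 11.40 with paraquat. The control arrays lay below all 6 treated arrays. Ccn1 rose by 0.26 ± 0.05 (SE) with diquat, 1.20-fold (limma adjusted p = 0.0143), and by 0.28 ± 0.05 (SE) with paraquat, 1.21-fold (adjusted p = 0.0136). With control replicate 2 left out the diquat change no longer passed (adjusted p = 0.066), nor with diquat replicate 1 left out (0.0553). The paraquat change did not pass without control replicate 1 (0.0509), control replicate 2 (0.067) or paraquat replicate 3 (0.051).

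Ccn2, the close relative of Ccn1 in the same family of matricellular proteins, did not pass with either compound. Its values were 10.75, 10.70 and 10.72 in controls, 10.76, 10.70 and 10.88 with diquat, and 10.71, 10.86 and 10.82 with paraquat, and the groups overlapped. The 95% intervals of its change ran from -0.06 to 0.18 with diquat and from -0.05 to 0.19 with paraquat. A second feature of Ccn2, at 5.98 in controls, changed by -0.01 and -0.11 and was not kept because its mean was lower. The change of Ccn1 exceeded that of Ccn2 by 0.21 with diquat (exact permutation test, two-sided, p = 0.2, n = 3 arrays per group). With paraquat the excess was 0.20 (exact permutation p = 0.1, n = 3), the smallest p that this test allows for 3 against 3 arrays. Both adjusted values were 0.2 over these 2 comparisons. Values of Ccn1 minus Ccn2 did not overlap between paraquat and control arrays, and they overlapped between diquat and control arrays. The permutation test cannot reach 0.05 with 3 against 3 arrays, so it does not settle whether the relatives differ. No other test of this difference was run.

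Neither member known for feedback on YAP passed the test upward. Amotl2, which encodes an angiomotin-like scaffold that holds YAP at cell junctions and is itself induced by YAP, was at 8.41, 8.41 and 8.36 in controls, at 8.18, 8.12 and 8.14 with diquat, and at 8.20, 8.26 and 8.30 with paraquat. The 3 groups did not overlap, with controls highest and diquat lowest. Amotl2 fell by 0.25 ± 0.04 (SE) with diquat, or 1.19-fold (limma adjusted p = 0.00418). With paraquat the change was -0.14 ± 0.04 (SE), which did not pass (adjusted p = 0.0757). Lats2, the Hippo kinase that phosphorylates YAP, was at 7.74 to 7.75 in controls, 7.74 to 7.77 with diquat and 7.68 to 7.74 with paraquat, and it did not pass (95% intervals of the change -0.07 to 0.08 and -0.12 to 0.03).

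Axl, a receptor tyrosine kinase and YAP target, did not pass with either compound. It was listed at 11.09 on 6 of the 9 arrays, among them all 3 with paraquat. Its lowest value was on control replicate 3 and its highest, 11.13, on diquat replicate 3. A single value on 6 or more arrays was listed for 2.72% of genes tested. The 95% interval of its change ran from -0.05 to 0.12 with diquat and from -0.05 to 0.11 with paraquat.

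Srf, the gene of the factor itself and one of its own targets, was at 9.48, 9.45 and 9.32 in controls, at 9.77, 9.67 and 9.76 with diquat, and at 9.68, 9.66 and 9.70 with paraquat. All 6 treated arrays lay above the controls. It rose by 0.32 ± 0.05 (SE) with diquat, 1.25-fold (limma adjusted p = 0.00369), and by 0.26 ± 0.05 (SE) with paraquat, 1.20-fold (adjusted p = 0.0121). The paraquat call was lost without paraquat replicate 3 (adjusted p = 0.0569).

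No contractile or adhesion gene among the members passed the test upward. Vcl encodes vinculin, which links integrins and cadherins to actin. It was at 10.75, 10.73 and 10.66 in controls, at 10.84, 10.86 and 10.82 with diquat, and at 10.72, 10.71 and 10.77 with paraquat. The diquat arrays lay above all others, but the change of 0.13 ± 0.04 (SE) did not pass (limma adjusted p = 0.0757), and the paraquat change was 0.02 ± 0.04 (SE). Its diquat change passed with an intensity trend and robust prior (adjusted p = 0.0341) and after centring the arrays (0.0459).

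Tagln encodes transgelin, an actin-binding protein of smooth muscle. Its values were 5.92, 5.90 and 6.03 in controls, 5.82, 5.74 and 5.62 with diquat, and 5.79, 5.86 and 5.75 with paraquat, near the array medians, and without detection calls such a level cannot be separated from background. All treated arrays lay below the controls. The diquat change of -0.22 ± 0.06 (SE) passed narrowly (limma adjusted p = 0.0461) and was past the threshold in 4 of 16 alternatives. It was lost without any 1 of the control arrays, diquat replicate 2 or 3, or any 1 of the paraquat arrays (adjusted p = 0.0601 to 0.152). The paraquat change was -0.15 ± 0.06 (SE; adjusted p = 0.232). Myl9, a regulatory light chain of myosin, ranged from 7.48 to 7.55 in controls, 7.45 to 7.51 with diquat and 7.50 to 7.53 with paraquat, and did not pass (95% intervals -0.10 to 0.05 and -0.08 to 0.08).

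**Figure D3:**
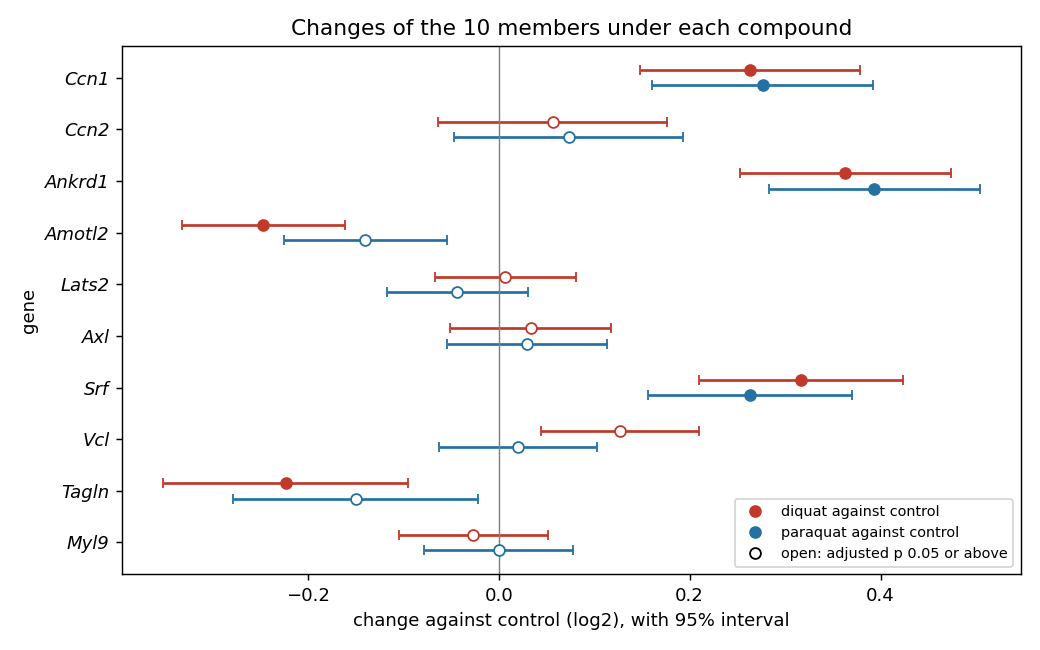
Change of each member against control on the log2 scale, with the 95% interval of the fit that is not adjusted for the number of genes, for diquat (red) and paraquat (blue). Filled points passed the adjusted threshold: Ankrd1, Ccn1 and Srf lie to the right for both compounds, and Amotl2 and Tagln lie to the left for diquat.

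Set directly against each other, the compounds gave no member past the test, and 0 of 22180 genes passed (0%), while 10.7% of all genes and 2 of the 10 members had an unadjusted p under 0.05 in limma. The doses differ, 18 µM against 126 µM, so this compares these treatments and not the compounds at a matched dose. Amotl2 was higher with paraquat than with diquat by 0.11 (95% interval 0.02 to 0.19; limma adjusted p = 0.423), and Vcl was lower by 0.11 (95% interval -0.19 to -0.02; adjusted p = 0.415). In these 2 genes the diquat and paraquat arrays did not overlap, which also held for 10.5% of all genes. For the 3 members that rose, the intervals of the difference between compounds ran from -0.08 to 0.14 for Ankrd1, from -0.10 to 0.13 for Ccn1 and from -0.16 to 0.05 for Srf.

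Other genes known as YAP targets, 17 of 18 measured, gave 2 higher and 1 lower with diquat and 2 higher and 0 lower with paraquat. The shares of all genes were 4.13% higher and 2.89% lower with diquat, and 2.33% higher and 2.24% lower with paraquat. The gene for tissue factor, F3, which starts blood coagulation, rose from 9.51 ± 0.06 to 9.97 ± 0.07 with diquat and to 9.89 ± 0.04 with paraquat (SD, n = 3 each), or 1.37-fold and 1.30-fold (limma adjusted p = 0.000364 and 0.00155). Igfbp3, a binding protein for insulin-like growth factors, rose 1.24-fold and 1.18-fold (adjusted p = 0.000916 and 0.00502). Ajuba, a LIM protein that inhibits LATS kinases, fell 1.24-fold with diquat (adjusted p = 0.0412) and was not past the test with paraquat (change -0.23, adjusted p = 0.166). The diquat change of Ajuba did not pass without any 1 of the control arrays, diquat replicate 1 or any 1 of the paraquat arrays (adjusted p = 0.0577 to 0.138). Without diquat replicate 2, the lowest of its diquat arrays, the diquat change was -0.20 and still passed, and the paraquat change passed (0.0157). The median change over the 17 genes was -0.02 with both compounds.

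Among 18 further actin, contractile, adhesion and LIM protein genes known as SRF and MRTF targets, 3 rose and 0 fell with each compound. Of all genes, 4.13% rose with diquat and 2.33% with paraquat. The 3 were Fhl2, Itga5 and Zyx with both compounds. The median change over the list was 0.02 and 0.04. Fhl2, a LIM protein that binds both SRF and actin structures, rose from 8.85 ± 0.07 to 9.46 ± 0.03 with diquat and to 9.47 ± 0.11 with paraquat (SD, n = 3 each), or 1.53-fold and 1.54-fold (limma adjusted p = 0.00019 and 0.000203). The fibronectin receptor gene Itga5 rose 1.33-fold and 1.21-fold (adjusted p = 0.00194 and 0.02), and Zyx, the gene of the focal adhesion protein zyxin, 1.12-fold and 1.18-fold (adjusted p = 0.0296 and 0.00481). The diquat change of Zyx did not pass without any 1 of the control arrays or diquat replicate 1 or 3 (adjusted p = 0.0539 to 0.109). The paraquat change of Itga5 did not pass without control replicate 2 or 3 or any 1 of the paraquat arrays (0.0546 to 0.0917). The smooth muscle actin gene Acta2 changed by -0.11 and -0.08 and did not pass. No other actin gene and no calponin, tropomyosin or myosin gene of the list passed with either compound. Actb changed by 0.19 with paraquat, just short of the threshold (limma adjusted p = 0.0504).

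Of 8 immediate early genes known as targets of SRF with ternary complex factors, 3 rose with diquat and 2 with paraquat, and 0 fell, beside 4.13% and 2.33% of all genes that rose. The zinc finger factor genes Egr1 and Egr2 rose 1.60-fold and 1.35-fold with diquat and 1.51-fold and 1.36-fold with paraquat (limma adjusted p = 0.000139, 0.00114, 0.000417 and 0.00134). Junb, an AP-1 subunit, rose 1.14-fold with diquat (adjusted p = 0.025). That call was lost without any 1 of the control arrays or diquat replicate 2 or 3 (adjusted p = 0.0514 to 0.103), and Fos changed by 0.01 and 0.10 without passing.

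Of 16 measured genes of the Hippo pathway, 2 rose and 0 fell with diquat and 1 rose and 0 fell with paraquat, where 7.02% and 4.57% of all genes passed. Yap1 changed by 0.07 ± 0.06 and 0.08 ± 0.06 (SE) and Wwtr1 by -0.05 ± 0.04 and 0.01 ± 0.04 (SE), with no call. Tead4, a TEAD factor, rose 1.18-fold and 1.22-fold (limma adjusted p = 0.0225 and 0.0101), and the FERM protein gene Frmd6 rose 1.21-fold with diquat (adjusted p = 0.0125). With diquat, the change of Tead4 did not pass without control replicate 1 or 3 or diquat replicate 1 or 3 (adjusted p = 0.0536 to 0.0846), and with paraquat it did not pass without control replicate 1 or paraquat replicate 2 or 3 (0.0509 to 0.052). The diquat change of Frmd6 did not pass without control replicate 1 (0.0523) or 2 (0.0528). The MRTF genes Mrtfa and Mrtfb changed by 0.00 and 0.12 with diquat and by -0.02 and 0.08 with paraquat, and the ternary complex factor genes Elk1 and Elk4 by 0.08 and 0.14 with diquat and by 0.17 and 0.04 with paraquat, and none of these 4 genes passed. Without diquat replicate 2, the diquat change of Elk4 passed (adjusted p = 0.0354). These are RNA levels, and the activity of YAP, TAZ and SRF is set largely by phosphorylation and location, which the arrays do not measure.

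**Figure D4:**
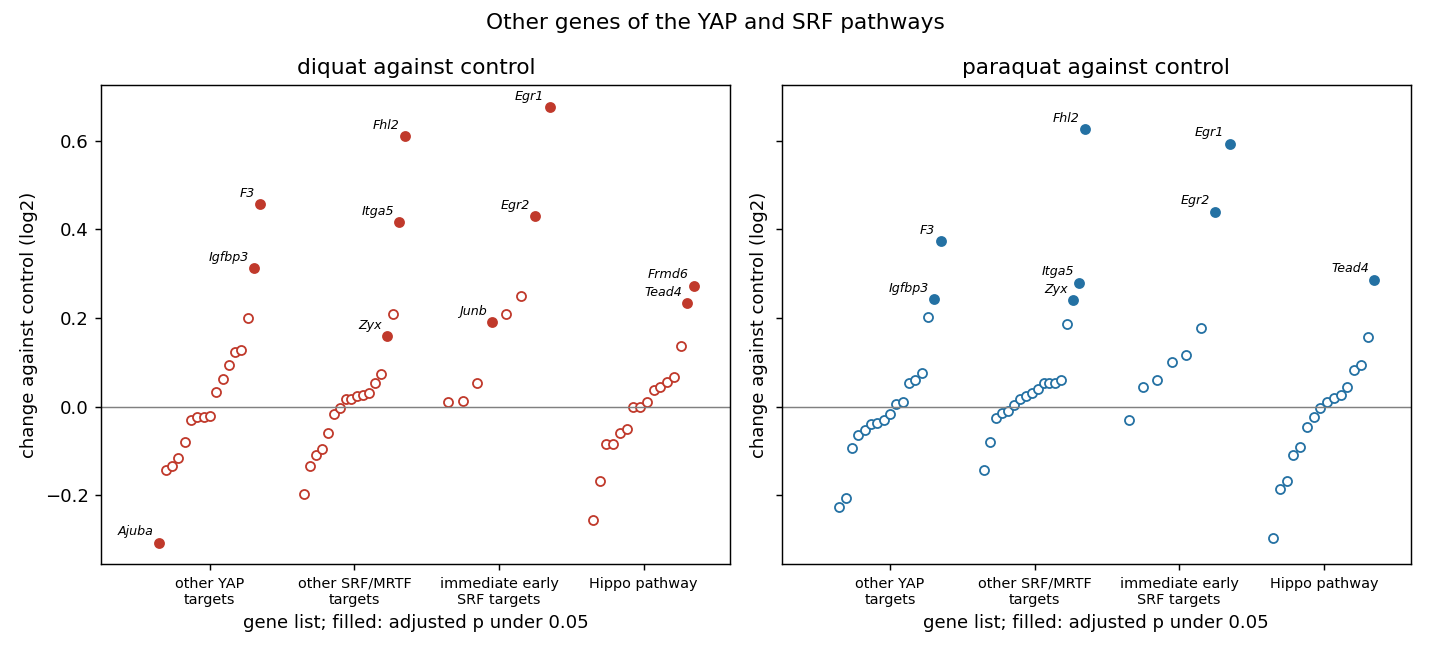
Log2 change against control of every measured gene of 4 further lists, sorted within each list, for diquat (left, red) and paraquat (right, blue). Filled, named points passed the adjusted threshold; Fhl2, Itga5, Zyx, Egr1, Egr2, F3, Igfbp3 and Tead4 are filled in both panels.

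Over the 9 arrays, Ccn1 (Pearson r = 0.967) and Srf (0.918) followed Ankrd1 most closely among the members, while Tagln (-0.752) and Amotl2 (-0.733) ran opposite to it. Among all genes, the profiles most like that of Ankrd1 were those of Spry2 (r = 0.986), 9430076C15Rik (0.984) and Polr1a (0.982). Spry2, whose product restrains receptor tyrosine kinase signalling, went from 8.15 ± 0.04 in controls to 8.59 ± 0.04 with diquat and 8.61 ± 0.07 with paraquat (SD, n = 3 each). These correlations are descriptions: the arrays fall into control and treated groups, so genes that differ between those groups correlate through them.

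Markers of other cells were read beside these changes. The mean over 10 stellate cell and fibroblast markers, which share Acta2 with the SRF targets, was 6.89 to 6.96 on the control arrays, 6.79 to 6.89 with diquat and 6.84 to 6.88 with paraquat, and 1 of the 10, Pdgfra, passed, lower with diquat. The mean over 7 hepatocyte markers was 10.89 to 10.92 in controls, 10.78 to 10.82 with diquat and 10.77 to 10.84 with paraquat. Of these, Ttr (transthyretin) changed by -0.34 and -0.32 and passed with both compounds. Hnf4a changed by -0.19 with diquat and passed only at the edge of the threshold (limma adjusted p = 0.05 after rounding). The markers were not put through the alternative settings. The mean over 6 macrophage markers was 6.13 to 6.16 in controls, 6.05 to 6.18 with diquat and 6.19 to 6.24 with paraquat, and 1 passed, Cd68, higher with diquat by 0.40. With diquat, 2 of these 6 markers had a change above 0 and the median change was -0.08. The mean over 5 cholangiocyte markers was 8.33 to 8.40, 8.41 to 8.42 and 8.42 to 8.47. Sox9 was higher with both compounds, by 0.45 and 0.39, and Krt7 and Krt19 changed by -0.29 and -0.16 and passed with diquat. None of 6 endothelial markers passed limma's adjusted test, and 1 and 0 had an unadjusted p under 0.05 with diquat and paraquat. The part of these marker levels in the members' changes was not tested.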

How the data were processed

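Per the submitters' processing notes, the authors made the deposited log2 values with Affymetrix Expression Console 1.1 and RMA, which corrects background, normalizes by quantiles and summarizes probes. The RMA settings, genome build and annotation were not stated in the sources consulted. Groups and replicate numbers came from sample titles. Descriptions of diquat and paraquat samples give the number 1 where the titles give other numbers, so the numbers, and what separates those replicates, are uncertain. Of 34472 features, 23521 carried 1 gene symbol in the platform annotation, 1814 several and 9137 none. Features with 1 symbol were used, and the feature with the highest mean was kept for each of 22180 genes. Members with a single feature numbered 9 of 10. No filter on low values was applied, so all 10 members entered the fit.

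No normalization was added. The lmFit and eBayes functions of limma 3.58.1, run under R 4.3.3, fitted 1 mean per group over all 9 arrays at once, with no covariates. Errors beside levels are standard deviations, and errors beside changes are standard errors. The fit was run on simulated data with independent noise. Its pass rule covered only changes larger than those of the members, so it does not bear on their calls. The members and the lists were chosen with earlier results of these data known. All members were named, with up to 4 genes past the test of each further list with the largest change, or the top 2 where none passed, besides Yap1, Wwtr1, Mrtfa and Mrtfb, and the 3 genes most correlated with the member of smallest adjusted p. Other list genes and markers were named after their values were seen. Promoters came from RefSeq on GRCm38.p6. The counts over 1 further list are not reported here.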

Additional observations from a re-analysis of the deposited data

How the results depend on the processing

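No member's change reversed while past the threshold under any of the 17 alternatives: array weights, centring, quantile normalization, a dim-gene filter, a robust prior with an intensity trend, a replicate block, the 2 groups alone, the mean of features and leaving out each array. Ankrd1 passed in all 17 with both compounds, and Srf and Amotl2 in all 17 with diquat. Tagln had 16, since the filter removed it. The count of members with diquat was 5, and 3 to 4 when 1 array was left out (3 without control replicate 2). With paraquat it was 3, and 1 to 3 (1 without paraquat replicate 3). With array weights Amotl2 passed for paraquat (adjusted p = 0.0269). Between compounds it was 0 throughout. Over all genes, the diquat count was 1558, 959 with the 2 groups alone and 802 to 1908 when 1 array was left out. The paraquat count was 1014, 1623 with array weights and 574 to 1197 when 1 array was left out. Between compounds it was 0, 4 without genes of mean log2 under 6, 1 after centring, 4 after quantile normalization, and 0 to 3 when 1 array was left out. The share of diquat calls that were higher was 58.9%, 77.5% after centring and 45.2% after quantile normalization. The share of paraquat calls that were higher was 51%, 43.9% after quantile normalization, 45.9% with array weights, and 45% to 62.6% when 1 array was left out (62.6% without control replicate 1). The causes were not tested. With the replicate number as a block, 4 members passed with diquat (Tagln did not, adjusted p = 0.0785), 3 with paraquat and 0 between compounds, and 1416, 930 and 0 genes in all. Deviations from the group means correlated at -0.192 to 0.198 between same-numbered arrays of different groups, and at -0.331 to 0.284 between differently numbered ones. Between control and paraquat, same-numbered arrays had 0.0893 to 0.157 and differently numbered ones -0.119 to -0.0168. Pairs with a diquat array showed no such order. Whether the numbers mark pairs is thus not settled, and the numbers themselves are uncertain. Named genes of the further lists were put through the same settings after the data were seen; besides the changes given with them, diquat calls were lost for Ajuba (centring, 2 groups alone), Zyx and Tead4 (quantile), Junb (block, quantile, 2 groups alone) and Frmd6 (2 groups alone), and calls were gained for Elk4 with diquat (dim-gene filter) and for Ajuba (2 groups alone, weights) and Frmd6 (weights) with paraquat. Detection calls were not used here, so signal over background is unknown.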
